A study of Mus musculus with 4 samples.

Results

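The genes described here are 9 components of transforming growth factor beta (TGF-beta) signalling: the ligands Tgfb1, Tgfb2 and Tgfb3, the integrin subunit Itgb6, the receptors Tgfbr1 and Tgfbr2, the effector Smad3, and the feedback regulators Smad7 and Skil. They were taken by name from the 55450 genes of the GENCODE annotation of the mouse genome (mm10). Chromatin accessibility had been measured by ATAC-seq, which reads open DNA from the places where the transposase Tn5 can insert adapters. Peaks of the 4 libraries were merged wherever they shared at least 1 bp, which gave 82641 regions, and regions that overlapped a gene body extended by 25 kb on each side were kept. This left 107 regions for the 9 genes, and no region fell to more than 1 of them.

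All libraries came from EpCam+ CD49f hi keratinocytes, the integrin-rich cells of the epidermis, sorted from the skin of mice treated on 8 days with cream containing 5% imiquimod, an agonist of Toll-like receptors that provokes psoriasis-like dermatitis. Per the study's methods the mice were females of 8 to 12 weeks on the C57BL/6 background, and 20000 to 50000 cells went into each library. The WT group held 2 libraries of littermate controls. The Mapk8-KO group held 2 libraries from mice in which a KRT14-cre transgene, driven by the keratin 14 promoter, had deleted floxed Mapk8, the gene of the kinase JNK1. Since both genotypes were treated, no untreated level was measured here, and whether the controls carried floxed alleles is not stated in the sources used here. The study describes the 2 samples of a genotype as independent but the sources used here do not say whether each came from a separate mouse, so p-values measure the spread between these libraries. A lower value may mean that fewer cells were open at a site or that the site was less open in each cell, and in sorted bulk cells these cannot be told apart.

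TGF-beta ligands are secreted in a latent form and bound to matrix by latent TGF-beta binding proteins. The integrin alpha-v beta-6, of which Itgb6 encodes the beta subunit, is made by epithelia and frees the ligand from that complex. Active ligand binds TGFBR2, which phosphorylates TGFBR1, and TGFBR1 in turn phosphorylates SMAD2 and SMAD3, which enter the nucleus and bind DNA with partner factors such as AP-1, the dimers of JUN and FOS proteins. JNK1 phosphorylates JUN. SMAD7 blocks the receptor and SKIL (SnoN) represses SMAD targets, and both genes are induced by the pathway itself. In epidermis TGF-beta is known for holding back keratinocyte growth.

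The sequences that carry the motif findings are shown first. The AP-1 motif was searched as TGACTCA or TGAGTCA, the cyclic AMP response element as TGACGTCA, the SMAD palindrome as GTCTAGAC and the CAGA box, to which SMAD3 binds, as AGCCAGACA, on both strands within 100 bp of each region's strongest summit. For every gene except Smad7, the AP-1 lines give the region with the highest mean pileup among those of a gene that held the motif and were called in all 4 libraries, together with a further region each of Itgb6 and Smad3 on which later comparisons turn. The last lines give the single SMAD palindrome and the single CAGA box found in the 107 regions. Each is the motif in capitals with 30 bases on either side, 5′ to 3′ on the plus strand of GRCm38.p6, the assembly that mm10 denotes.
Tgfb1_r4, downstream, chr7:25705984-25706050: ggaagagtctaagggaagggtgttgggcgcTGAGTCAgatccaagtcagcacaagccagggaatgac
Tgfb2_r2, downstream, chr1:186610098-186610164: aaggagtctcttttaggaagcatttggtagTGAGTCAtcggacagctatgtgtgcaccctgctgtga
Tgfb3_r7, upstream, chr12:86086016-86086082: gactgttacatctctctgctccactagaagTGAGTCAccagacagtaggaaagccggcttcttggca
Itgb6_r17, intron, chr2:60703431-60703497: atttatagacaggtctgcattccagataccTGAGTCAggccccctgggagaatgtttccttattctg
Itgb6_r2, intron, chr2:60612832-60612898: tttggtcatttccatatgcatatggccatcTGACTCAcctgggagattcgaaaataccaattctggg
Tgfbr1_r4, intron, chr4:47407331-47407397: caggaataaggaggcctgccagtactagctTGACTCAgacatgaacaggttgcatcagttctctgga
Tgfbr2_r5, intron, chr9:116154029-116154095: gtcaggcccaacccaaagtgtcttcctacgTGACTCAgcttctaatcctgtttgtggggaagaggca
Smad3_r10, intron, chr9:63718885-63718951: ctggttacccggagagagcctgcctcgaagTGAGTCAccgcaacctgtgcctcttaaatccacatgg
Smad3_r15, intron, chr9:63745962-63746028: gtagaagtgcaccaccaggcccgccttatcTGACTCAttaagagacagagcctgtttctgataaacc
Skil_r2, downstream, chr3:31134409-31134475: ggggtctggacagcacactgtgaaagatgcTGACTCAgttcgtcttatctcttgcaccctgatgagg
Tgfb3_r10, SMAD palindrome, chr12:86100856-86100923: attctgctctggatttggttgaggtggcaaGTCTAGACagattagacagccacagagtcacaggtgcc
Itgb6_r11, CAGA box, chr2:60692443-60692511: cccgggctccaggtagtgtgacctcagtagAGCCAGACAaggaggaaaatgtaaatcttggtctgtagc

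Regions are numbered along the chromosome within each gene. The measure used for a region is its pileup, the number of sequenced fragments that overlap the summit, recovered from the deposited fold enrichment and −log10 p. Pileups of the same regions gave relative depths of 1 (WT 1), 0.691 (WT 2), 1.12 (Mapk8-KO 1) and 0.644 (Mapk8-KO 2), and a scaled pileup is a pileup divided by this depth. The lists held 69927, 54856, 69583 and 49856 peaks in the same order, with lowest pileups of 8 to 10, so sites below that level were not called. The within-list percentile ranks the fold enrichment of a peak over its local background among all peaks of its library. Promoter regions were called at 6 of 6 keratinocyte marker genes in 3 libraries and at 5 of 6 in Mapk8-KO 2, which lacked Krt5, and at 0 of 4 leukocyte genes in any library. At least 1 endothelial gene of 3, and 2 of 3 fibroblast and 2 of 3 melanocyte genes, had called promoters in every library. The Mapk8 promoter region had pileups of 96, 73, 109 and 90 in WT 1, WT 2, Mapk8-KO 1 and Mapk8-KO 2, which is no check of the deletion, since a floxed exon elsewhere in the gene may be lost while the promoter stays open. The highest scaled pileup at the Krt14 promoter was 38 and 24.6 in the WT libraries and 178 and 169 in the Mapk8-KO libraries, and its part in the results was not tested.

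Accessible regions were unevenly spread over the 9 genes. Itgb6 had 19 regions, Smad3 18, Tgfbr2 15, Tgfb2 14, Smad7 13, Tgfb3 11, Tgfb1 8, Tgfbr1 5 and Skil 4. Per 100 kb of the gene body with its flanks this ranged from 4.48 regions for Tgfbr1 to 16.6 for Smad7. By the strongest summit, 54 of the 107 regions lay in introns, 30 upstream, 20 downstream and 3 in untranslated exons. In 52 of 107 regions the nearest transcription start site (TSS) was that of the listed gene itself, and the others lay nearer to a neighbour, such as the downstream Tgfb1 regions next to Ccdc97. Tgfb3 and Tgfb2 differed in where their regions lay. Of the 11 Tgfb3 regions 7 were upstream of the gene, while the 14 Tgfb2 regions comprised 5 intronic, 5 upstream, 3 downstream and 1 exonic.

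**Figure D1:**
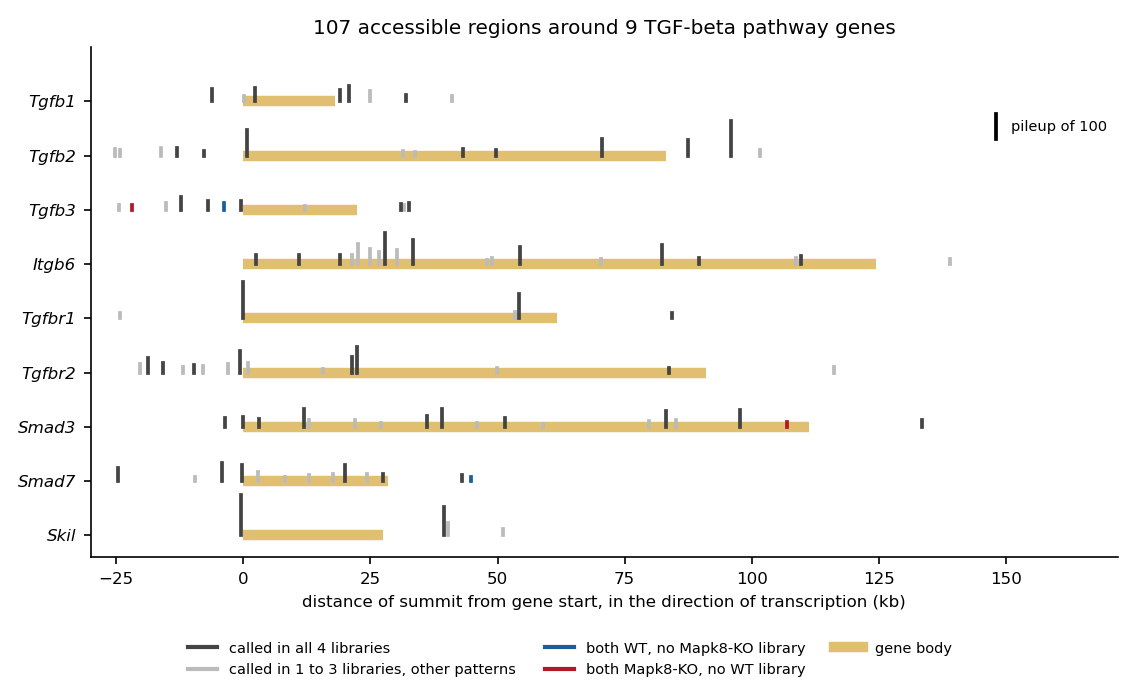
Position and height of the 107 regions along 9 genes. The x axis is the distance in kb of each region's summit from the gene start in the direction of transcription, each vertical line is a region whose height is the mean scaled pileup over the libraries that called it (scale bar, 100 fragments), and its colour is the pattern of calls. Tall lines at the gene start are seen for Tgfb2, Tgfbr1, Tgfbr2 and Skil, and the 4 blue or red lines are the regions called in both libraries of 1 genotype alone.

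The first comparison asked which of these regions were called at all in WT and in Mapk8-KO keratinocytes. Of the 107 regions, WT 1 called 99 and WT 2 called 76, while Mapk8-KO 1 called 95 and Mapk8-KO 2 called 65, so the 2 deeper libraries called more than the 2 shallower ones. Of all 82641 regions the same libraries called 83.8%, 65.2%, 83.2% and 59.1%. The WT mean was 87.5 ± 16.3 (SD, n = 2) and the Mapk8-KO mean 80.0 ± 21.2 (SD, n = 2). The difference of 7.5 regions lay within the spread of the libraries (two-sided exact permutation test over 6 assignments, p = 0.667, where the smallest possible p is 0.333). Without WT 1 the difference was -4.5 and without Mapk8-KO 2 it was -7.5. All 4 libraries called 55 of the regions, or 51.4%, beside 48.6% of all 82641 regions. The next most frequent pattern was a call in every library but Mapk8-KO 2, the shallowest, with 17 regions or 15.9% of the list against 9.91% of all regions. WT 1 alone called 9 regions, or 8.41% beside 9.08%.

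Few regions were called in 1 genotype alone. Both WT libraries and no Mapk8-KO library called 2 regions, or 1.87%, beside 2.17% of all regions, and both Mapk8-KO libraries and no WT library called another 2, beside 1.65%. The first WT-specific region, Tgfb3_r6 at chr12:86082511-86082798, lay 3470 bp upstream of the Tgfb3 TSS but nearer to that of Ift43, with pileups of 24 in WT 1 and 18 in WT 2. It ranked at the percentiles 5.03 and 3.48 of these lists, near the foot of both. The second, Smad7_r13 at chr18:75411971-75412377, lay downstream of Smad7, with pileups of 15 and 11 at percentiles 20.6 and 8.35. Of the Mapk8-KO-specific regions, Tgfb3_r10 at chr12:86100640-86100970, 21599 bp upstream of the Tgfb3 TSS, had pileups of 19 in Mapk8-KO 1 and 14 in Mapk8-KO 2. It was the region that held the SMAD palindrome. Smad3_r2 at chr9:63650978-63651268, in an intron of Smad3, had pileups of 19 and 13. These pileups lay in the lower part of every list, and a window of 10 kb kept 1 region of each kind. The WT-specific count was 11 without WT 2 and 19 without Mapk8-KO 1, and the Mapk8-KO-specific count was 10 without WT 1 and 6 without Mapk8-KO 2, since 1 library then stood for its group.

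Most regions near the starts of the signalling genes were open in both genotypes. Within 2 kb of a member's own TSS lay 13 regions, of which 8 were called in all 4 libraries, 1 for each gene other than Itgb6. For Tgfb1 this was an intronic region, Tgfb1_r3, 1926 bp from the TSS. The region at the start of Skil, Skil_r1 at chr3:31093739-31095183, had pileups of 119 (WT 1) and 102 (WT 2) against 182 (Mapk8-KO 1) and 130 (Mapk8-KO 2). After scaling, both Mapk8-KO libraries lay above both WT libraries. The region at the start of Tgfbr1, Tgfbr1_r2 at chr4:47352779-47353787, had pileups of 112, 107, 159 and 103 in the same order, and its scaled values overlapped between the genotypes. That of Tgfb2, Tgfb2_r9 at chr1:186705215-186706418, had pileups of 100, 73, 115 and 56, and that of Tgfbr2, Tgfbr2_r8 at chr9:116175027-116176172, had 82, 65, 85 and 57. Both overlapped between the genotypes after scaling.

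Other promoters were weaker. Smad3_r17 at chr9:63757837-63758386 had pileups of 42, 27, 41 and 26, Tgfb3_r5 at chr12:86078957-86079673 had 39, 23, 49 and 17, and Smad7_r4 at chr18:75366681-75367767 had 53, 47, 74 and 43. The Smad7 promoter ranked low within the lists for its pileup, at percentiles 7.61, 18.4, 19.8 and 15.0. The region at the Tgfb1 start itself was not called in every library. Tgfb1_r2 at chr7:25686814-25687528 had pileups of 27, 14 and 19 in WT 1, WT 2 and Mapk8-KO 1 and no call in Mapk8-KO 2, and it ranked at percentiles 16.4, 1.37 and 1.08. A stronger Tgfb1 region, Tgfb1_r3 at chr7:25688928-25689720, lay in an intron near the start with pileups of 45, 33, 60 and 35. Its scaled pileups were higher in both Mapk8-KO libraries, with a log2 difference of 0.22 (limma, unadjusted p = 0.337). The remaining regions near a member's TSS were called in 1 to 3 libraries. Tgfbr2_r7 was called in WT 1 alone with a pileup of 37, and Smad7_r5 had 36, 28 and 34 and no call in Mapk8-KO 2. At an internal start of Itgb6, Itgb6_r8 had pileups of 31, 25 and 15 in WT 1, Mapk8-KO 1 and Mapk8-KO 2, and Itgb6_r9 had 18 in Mapk8-KO 1 alone.

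**Figure D2:**
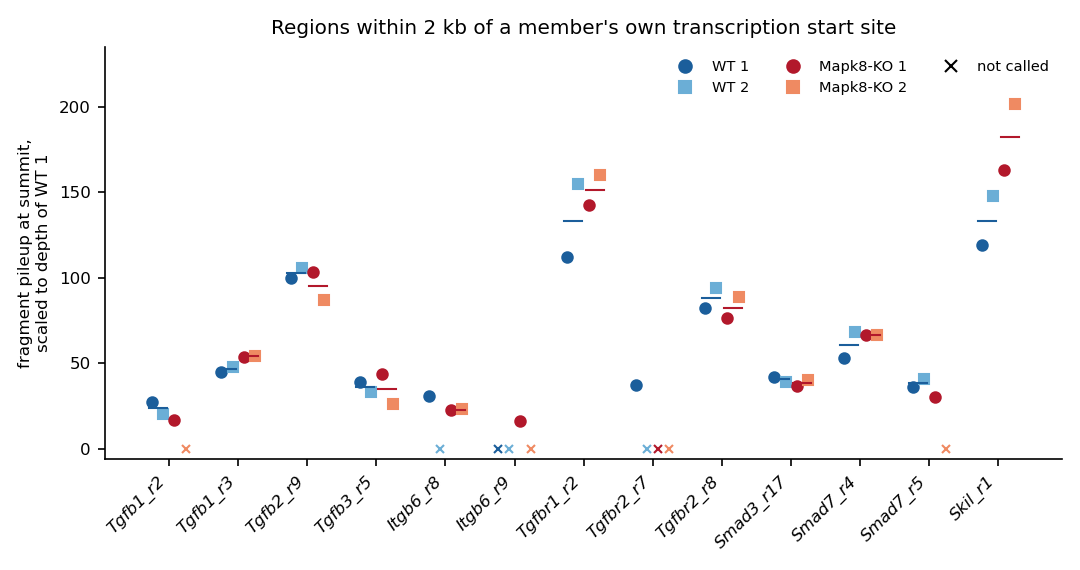
Scaled pileup of the 13 regions within 2 kb of a member's own transcription start site. The y axis is the fragment pileup at the summit divided by relative depth, points are the 4 libraries, horizontal lines are group means where both libraries called the region, and crosses at 0 mark libraries without a call. For Skil_r1 both Mapk8-KO points lie above both WT points, while for Tgfbr1_r2, Tgfb2_r9 and Tgfbr2_r8 the genotypes overlap.

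Regions near a member's TSS and other regions differed in base composition. The former 13 had a median GC content of 61.4% and a median ratio of observed to expected CpG of 0.673, and the other 94 regions had 50.4% and 0.251. RefSeq promoter sequences (GRCm38.p6), from 250 bases before to 50 after the start, matched 8 entries for 6 of the 9 genes, all but Tgfb3, Smad7 and Skil. In these 8 none of the motifs was found. Over all 32851 promoter sequences the AP-1 motif was in 5.20%, the cyclic AMP response element in 1.79%, the SMAD palindrome in 0.213% and the CAGA box in 0.387%.

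Away from promoters several members had strong distal regions. Tgfb2_r2 at chr1:186609806-186610522, downstream of Tgfb2 and with an AP-1 motif, had pileups of 133 (WT 1) and 95 (WT 2) against 164 (Mapk8-KO 1) and 76 (Mapk8-KO 2), and ranked at percentiles 97.9, 98.0, 98.1 and 94.6. It was near the top of every list and did not separate the genotypes. Its pileup exceeded that of the Tgfb2 promoter region in each library, while the distal regions of Tgfbr1 and Skil described next were weaker than those promoters. Tgfbr1_r4 at chr4:47407082-47407850, in an intron of Tgfbr1, had pileups of 105, 67, 91 and 67 at percentiles 93.7, 94.6, 94.9 and 99.3. Skil_r2 at chr3:31134269-31134771, downstream of Skil and nearer to the start of Cldn11, a claudin gene, had pileups of 113, 73, 114 and 75. Both of these regions held an AP-1 motif as well, and in both the scaled values overlapped. The log2 differences, Mapk8-KO minus WT, were -0.04 for Tgfb2_r2, -0.13 for Tgfbr1_r4 and -0.0022 for Skil_r2.

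Tgfbr2, the receptor that binds ligand first, had its strongest distal region in an intron, Tgfbr2_r4 at chr9:116152737-116153306, with pileups of 110, 67, 125 and 54. The strongest of Smad3 after scaling was Smad3_r15 at chr9:63745840-63746479, with 75, 44, 81 and 47, and that of Smad7 was Smad7_r3 at chr18:75362937-75363539, with 67, 48, 72 and 53. For Tgfb1 the strongest outside 2 kb was Tgfb1_r5 at chr7:25707642-25708279, with 62, 40, 74 and 39, and for Tgfb3 it was Tgfb3_r8 at chr12:86090855-86091372, with 42, 40, 52 and 30. In each of these 5 regions the scaled pileups of the genotypes overlapped.

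The regions of Itgb6 had a layout of their own. The gene spans 124 kb, all but 1 of its 19 regions were intronic, and no region lay within 2 kb of its 5′ start. The nearest, Itgb6_r19, was 2084 bp away and had pileups of 39, 28, 33 and 23. A cluster of 8 regions, Itgb6_r10 to Itgb6_r17, took up 14.7 kb of intron. The strongest of them, Itgb6_r12 at chr2:60694622-60694996, had pileups of 117, 77, 149 and 86, yet ranked only at percentiles 59.0, 50.9, 66.6 and 72.0. The local background that MACS2 used, recovered with the pileup, had medians over the called cluster regions of 12.8, 8.22, 16.0 and 6.12 fragments in WT 1, WT 2, Mapk8-KO 1 and Mapk8-KO 2, beside 2.90, 2.25, 2.52 and 1.79 over the other Itgb6 regions. Itgb6_r13, chosen after its values were seen, had pileups of 45, 35 and 54 in WT 1, WT 2 and Mapk8-KO 1 and ranked at percentiles of 0.252, 0.281 and 0.440. A region here could thus hold many fragments and still rank at the foot of its list. Of the 8 cluster regions 3 were called in all 4 libraries, and Mapk8-KO 2 called 4 of them against 8, 5 and 7 in WT 1, WT 2 and Mapk8-KO 1.

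**Figure D3:**
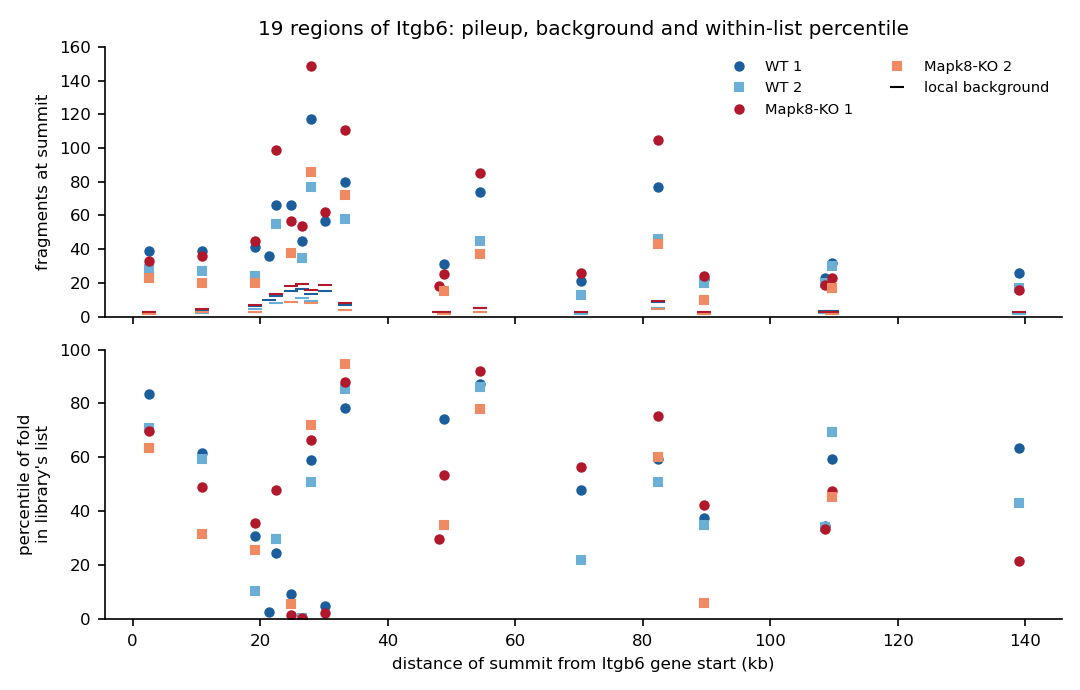
Regions of Itgb6 by distance in kb of the summit from the gene start (x axis, both panels). The upper panel gives unscaled pileup at the summit (points) and local background (dashes) in fragments for each library that called the region, and the lower panel the percentile of fold enrichment within that library's list; over the cluster of 8 regions the dashes are raised and several well covered regions sit at the lowest percentiles.

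The next comparison asked whether the regions called in all 4 libraries ranked differently in the genotypes. A region was said to rank higher in WT when both WT percentiles exceeded both Mapk8-KO percentiles by 10 points or more, and the reverse for Mapk8-KO. Of the 55 regions, 2 ranked higher in WT, beside 2.65% of the 40159 regions called in all libraries, and 0 ranked higher in Mapk8-KO, beside 3.78%. Both lay in introns of Itgb6 outside the cluster. Itgb6_r2 at chr2:60612738-60613169, which held an AP-1 motif, ranked at 59.4 (WT 1) and 69.4 (WT 2) against 47.3 (Mapk8-KO 1) and 45.2 (Mapk8-KO 2), with pileups of 32, 30, 23 and 17. Itgb6_r18 at chr2:60711071-60711906 ranked at 61.6, 59.6, 49.1 and 31.4, with pileups of 39, 27, 36 and 20. With a gap of 20 points 0 regions ranked higher in WT. Leaving out 1 library gave 2 (without WT 1) to 10 (without Mapk8-KO 1) regions that favoured WT and 3 to 10 (without Mapk8-KO 2) that favoured Mapk8-KO.

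Differences in pileup were then tested with limma over all 40159 regions, and only those of the 9 genes are described. By this test 0 of the 55 regions were called at an adjusted p of 0.05, while over all regions 0.0199% were called higher and 0.214% lower in Mapk8-KO. The lowest adjusted p among the 55 was 0.280. An unadjusted p under 0.05 was reached by 3 of the 55, beside 10.4% of all regions, so small p-values were no more frequent among the members than in the rest.

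The 3 regions were the Skil promoter, an intron of Itgb6 and an intron of Smad3. Skil_r1, the promoter region of the SMAD co-repressor, was higher in Mapk8-KO by 0.45 on the log2 scale (SE 0.17, limma, unadjusted p = 0.00987, adjusted p = 0.280). Itgb6_r2 had a log2 difference of -0.68 (SE 0.29, unadjusted p = 0.0233, adjusted p = 0.379). Smad3_r10 at chr9:63718811-63719337, with an AP-1 motif, had pileups of 88 (WT 1) and 52 (WT 2) against 78 (Mapk8-KO 1) and 32 (Mapk8-KO 2), a log2 difference of -0.47 (SE 0.21, unadjusted p = 0.0307, adjusted p = 0.415). In all 3 the scaled pileups of the genotypes did not overlap, as in 20.3% of all regions in each direction. The 3 were picked by p-value from the same data, so this adds no separate support. Without Mapk8-KO 1, when the lone Mapk8-KO 2 library was assumed to vary like the WT pair, Skil_r1 had an adjusted p of 0.0269 and Smad3_r10 of 0.0438. These were 2 of the 55 member regions called under that setting, or 3.64%, beside 4.81% of all regions. The difference of Smad3_r10 shrank to -0.19 without Mapk8-KO 2 (limma, adjusted p = 0.953), and that of Skil_r1 shrank to 0.29 without WT 1 (limma, adjusted p = 0.853).

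Over the 55 regions the median log2 difference, Mapk8-KO minus WT, was -0.08, and over all 40159 regions it was 0.0053. The values of the members ran from -0.68 to 0.45, and their standard errors had a median of 0.24. Lower values in Mapk8-KO were seen in 36 of 55 regions, or 65.5%, beside 49.3% of all regions. On log2 fold enrichment 29 of 55 were lower, and without Mapk8-KO 2 it was 37 of 72. The median was -0.0057 without Mapk8-KO 2, -0.02 without WT 1 and -0.04 with correction for GC content. The scaled pileups of the genotypes did not overlap in 8 regions that were lower and in 6 that were higher in Mapk8-KO, or 14.5% and 10.9% of the 55, beside 20.3% of all regions in each direction. Per library, after centring for depth, the median log2 pileup of the 55 regions was 5.21 ± 0.04 in WT and 5.24 ± 0.06 in Mapk8-KO (SD, n = 2 each). This difference was opposite in sign to the median of the regions' own differences and within the spread (two-sided exact permutation test, p = 0.667). Over all 40159 regions the same measure was 5.36 ± 0.004 in WT and 5.31 ± 0.04 in Mapk8-KO.

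**Figure D4:**
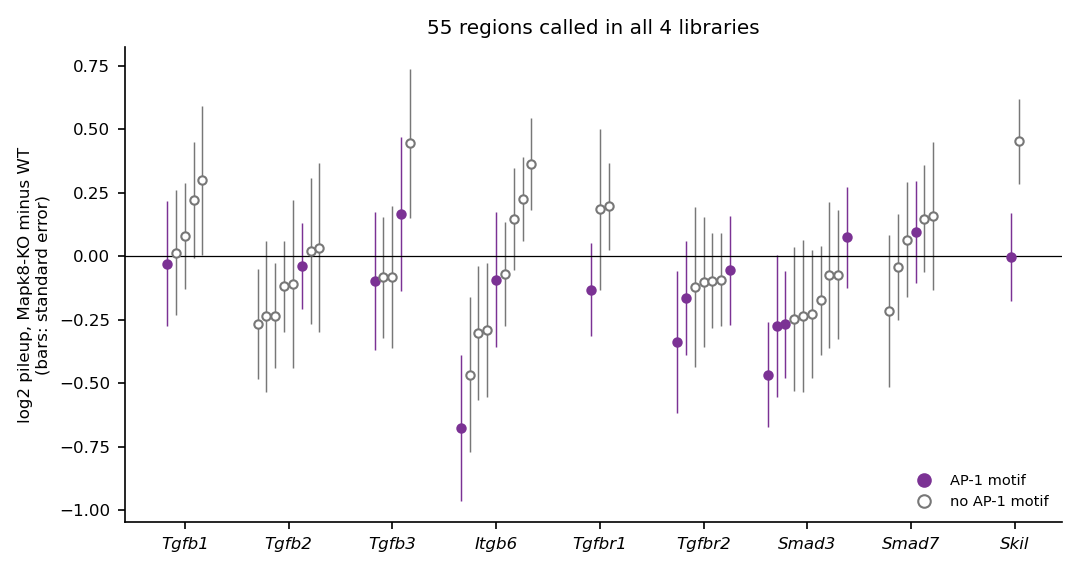
Log2 difference in pileup, Mapk8-KO minus WT, for the 55 regions called in all 4 libraries, grouped by gene on the x axis. Points are limma estimates, bars their standard errors, and filled points hold an AP-1 motif within 100 bp of the summit; 36 of 55 points lie below 0, all 7 of Tgfbr2 and 9 of 10 of Smad3 among them.

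AP-1 motifs were found near the summit in 35 of the 107 regions, or 32.7% (Wilson 95% interval 24.6 to 42.1%, which covers counting error only), beside 23.7% of all regions. Each of the 9 genes had at least 1. Of the 13 regions near a member's TSS 1 had the motif. Outside the promoters of any gene 34 of 87 regions did, or 39.1% beside 28.0% of all such regions. With the motif required within 50 bp of the summit the share of the 107 was 21.5%. The cyclic AMP response element was in 0 of the 107 regions and in 0.772% of all regions, the SMAD palindrome in 1 and 0.226%, and the CAGA box in 1 and 0.449%. The CAGA box lay in Itgb6_r11 at chr2:60692353-60692605, a region of the intronic cluster called in WT 1 with a pileup of 57 and in Mapk8-KO 1 with 62.

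Member regions with an AP-1 motif mostly had lower values in Mapk8-KO, as did regions with the motif at large. Of the 16 such member regions that all 4 libraries called, 13 had a lower value in Mapk8-KO, beside 68.0% of all regions with the motif, and the median log2 difference was -0.10, beside -0.13. Without the motif 23 of 39 member regions were lower, beside 43.2% of all, with a median of -0.07 beside 0.05. After centring for depth, the median log2 pileup of the 16 regions was 5.60 ± 0.04 in WT and 5.44 ± 0.03 in Mapk8-KO (SD, n = 2 each). That of the 39 others was 5.15 ± 0.03 and 5.12 ± 0.07. For the 16 the libraries of the genotypes did not overlap (two-sided exact permutation test, p = 0.333, the smallest this design allows). Among the 35 regions with the motif 9 were called in every library but Mapk8-KO 2, or 25.7% beside 16.2% of all regions with the motif. WT 1 called 34 of the 35, WT 2 25, Mapk8-KO 1 28 and Mapk8-KO 2 16, while of all regions with the motif these libraries called 89.7%, 73.7%, 84.3% and 54.6%.

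Each gene was then given 1 value per library, the sum of the pileups of its regions called in all 4 libraries. For these sums pileups were scaled to the average depth of the 4 libraries, not to that of WT 1. By limma over 32788 genes with such a region, 0 of the 9 members were called at an adjusted p of 0.05, beside 0.32% of all genes, and 1 of 9 had an unadjusted p under 0.05, beside 9.41%. That gene was Skil, with sums of 194 (WT 1) and 212 (WT 2) against 222 (Mapk8-KO 1) and 266 (Mapk8-KO 2), and a log2 difference of 0.26 (SE 0.12, unadjusted p = 0.0324, adjusted p = 0.483). The sum rested on 2 regions, the promoter at 0.45 and Skil_r2 at -0.0022. The difference was 0.14 without Mapk8-KO 2. Both Mapk8-KO sums lay above both WT sums for 2 of the 9 genes, Skil and Tgfb1, beside 24.1% of all genes, and below them for 3, Tgfb2, Tgfbr2 and Smad3, beside 15.9%.

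The differences of the ligand genes were close to or smaller than their standard errors. Tgfb1 had sums of 189, 176, 191 and 202 in WT 1, WT 2, Mapk8-KO 1 and Mapk8-KO 2, a log2 difference of 0.11 (SE 0.12) that was 0.02 without Mapk8-KO 2. Tgfb2, with sums of 398, 389, 384 and 337, had a difference of -0.13 (SE 0.10), with 6 of 8 regions lower in Mapk8-KO, and this was -0.03 without Mapk8-KO 2. Tgfb3, with 138, 141, 157 and 131, had 0.04 (SE 0.14), and its Mapk8-KO libraries lay on either side of the WT pair. Itgb6, whose product activates the latent ligands, had 435, 429, 458 and 425, a difference of 0.03 (SE 0.10), and its regions split between 6 lower and 3 higher in Mapk8-KO. The higher ones included the 2 strongest of the cluster, Itgb6_r10 with a log2 difference of 0.36 and Itgb6_r12 with 0.23.

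The receptors and SMADs gave small differences of both signs. Tgfbr1 had sums of 202, 222, 203 and 241, a log2 difference of 0.06 (SE 0.12). Tgfbr2 had 350, 335, 312 and 319, a difference of -0.12 (SE 0.10), and its 7 regions had differences of -0.34 to -0.06. Smad3 had 454, 401, 392 and 355, a difference of -0.19 (SE 0.10, unadjusted p = 0.0715, adjusted p = 0.575), with 9 of its 10 regions lower. Smad3_r15 was the exception among the Smad3 regions at 0.07. Without Mapk8-KO 2 the Smad3 difference was -0.07. That of Tgfbr2 was -0.03 on log2 fold enrichment and -0.18 without WT 2. Smad7, the inhibitor, had 243, 247, 239 and 270, a difference of 0.05 (SE 0.11), with the Mapk8-KO values on both sides of the WT pair.

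The wider pathway was read from a list of 31 symbols for 30 further genes, since Ccn2 was also listed under its older symbol Ctgf. All 30 genes were found, and 28 of them had a region called in all 4 libraries. Their sums were higher in Mapk8-KO for 14 and lower for 14, with a median log2 difference of 0.01 beside 0.04 over all genes and 0.04 over the 9 members. Of their 242 regions, 126 were called in all 4 libraries, beside 48.6% of all regions. Another 4 were WT-specific, beside 2.17%, and 2 were Mapk8-KO-specific, beside 1.65%. Of the 126, 5 passed the ranking rule in favour of WT, beside 2.65% of all regions called in every library. The rule was passed in favour of Mapk8-KO by 5 as well, beside 3.78%. Limma called 0 of the 126, where over all regions it called 0.0199% higher and 0.214% lower in Mapk8-KO. By the test over genes 1 of the 28 was called, beside 0.32% of all genes, and it was lower in Mapk8-KO. This was Ltbp1, which encodes a latent TGF-beta binding protein that tethers the latent ligand to matrix. Its sums were 550 (WT 1) and 578 (WT 2) against 456 (Mapk8-KO 1) and 340 (Mapk8-KO 2), a log2 difference of -0.52 (SE 0.11, limma, adjusted p = 0.0281). Both Mapk8-KO libraries lay below both WT libraries. Of its 11 regions 10 were lower, and 6 had an unadjusted p under 0.05 (limma), beside 10.4% of all regions. The gene was picked by the sum of these same regions, so those counts are no separate support. The lowest adjusted p among the 11 was 0.0894 (limma). An AP-1 motif was held by 4 of the 11, beside 24.4% of all regions called in every library. The difference was -0.29 without Mapk8-KO 2 (limma, adjusted p = 0.912) and -0.28 on log2 fold enrichment (adjusted p = 0.576). It was -0.56 to -0.45 without either WT library, with quantile normalization, without the variance trend and with correction for GC content, and in these settings too the call was lost, the lowest adjusted p being 0.0520 (limma). The call was kept with a replicate block (adjusted p = 0.000144), with a mean pileup of at least 20 (adjusted p = 0.0274) and without Mapk8-KO 1, where the difference was -0.73 (adjusted p = 0.000135). With the block and GC correction together the adjusted p was 0.0589.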

How the data were processed

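The authors sorted keratinocytes, tagged their DNA with Tn5 and, per the study's methods, mapped paired reads to mm10 with Bowtie2, removed multiply and poorly mapped reads and called peaks per library with MACS2, without a control. No shift of read ends is stated. The submitters' processing notes also list Trimmomatic 0.36 and STAR 2.5.3, and whether STAR served these libraries is not stated. The highest q in a deposited list was 0.0097, below the threshold of 0.05 in the methods. Each deposited list gives, per peak, a score, a fold enrichment (ratio of summit pileup to local background), −log10 p and −log10 q values and the summit offset.

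Pileups were solved from the deposited fold and −log10 p, and at least 99.996% of them were whole within 0.05. Read counts per region were not used, so the study's DESeq2 test was not run. Regions called in all 4 libraries were tested with limma 3.58.1 (R 4.3.3) on median-centred log2 pileup with a variance trend, adjusted over all regions by Benjamini-Hochberg, and gene sums likewise. Pileup recovery and the limma fit over regions were tested on simulated data. Single values per library were compared by exact permutation. Regions near a TSS used the GENCODE basic annotation (77198 start sites). Named in the text were all 9 genes, their regions within 2 kb of their own TSS, their strongest distal region and every called, ranked or genotype-specific region, and further pathway genes only when called. Regions with an unadjusted p under 0.05, and the further regions named, were chosen after their values were seen. Members and lists were chosen with earlier results of these data known. Total reads per library are not in the lists, so depth is relative. Alternatives were peak thresholds, list lengths, window sizes, assignment to the nearest TSS, ranking rules, normalizations, GC correction, a replicate block and each library left out.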

Additional observations from a re-analysis of the deposited data

How the results depend on the processing

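Mapk8-KO 2 and WT 2 were the shallower libraries, and pileups under 8 were not called. With q under 0.001 no count moved by over 1.5 times. Lists of equal length gave 4 WT-specific regions and 1 region ranked higher in WT against 3 in Mapk8-KO. A window of 10 kb gave 1 WT-specific and 1 Mapk8-KO-specific region, and a window of 50 kb 1 region ranked higher in Mapk8-KO. Assignment to the nearest TSS gave 56 regions, of which 52 were among the 107, 1 of them WT-specific, 0 Mapk8-KO-specific and 1 ranked higher in WT. Peaks covering 50% of a region, and ranking by −log10 p, each gave 1 ranked higher in WT. Percentiles among the regions called in all libraries gave 1 ranked higher in Mapk8-KO. With 5 points as the gap, the counts were 4 for WT and 3 for Mapk8-KO. With 20 points it was 0 for WT. The AP-1 share was 21.5% within 50 bp of the summit, with no share of all regions at that distance to set beside it. The median log2 difference of member regions was -0.0114 on log2 fold enrichment and -0.0417 with GC correction.

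Leaving out each library gave 2 to 19 WT-specific and 2 to 10 Mapk8-KO-specific regions, 2 to 10 ranked higher in WT and 3 to 10 in Mapk8-KO, a difference in called regions of -7.5 to 22, a median log2 difference of -0.10 to -0.0057, and 0 to 2 regions called by limma, the 2 of 55 without Mapk8-KO 1, where 4.81% of all regions were called. The log2 difference ran from 0.145 without Mapk8-KO 2 to 0.391 without Mapk8-KO 1 for Skil, from -0.277 without WT 2 to -0.0675 without Mapk8-KO 2 for Smad3 (-0.109 without WT 1), from -0.224 without Mapk8-KO 1 to -0.0259 without Mapk8-KO 2 for Tgfb2, and from 0.0154 without Mapk8-KO 2 to 0.152 without WT 1 for Tgfb1. For Tgfbr2 it ran from -0.178 without WT 2 to -0.0886 without WT 1. The gene values that changed sign were all small: Tgfb3 ran from -0.0939 without Mapk8-KO 1 to 0.192, Itgb6 from -0.0399 without WT 2 to 0.0875 and was -0.0158 on log2 fold enrichment, Tgfbr1 ran from -0.0173 without Mapk8-KO 2 to 0.184, and Smad7 ran from -0.0398 without Mapk8-KO 2 to 0.138 and was -0.0011 on log2 fold enrichment. The replicate numbers were shared between genotypes, but the deviations of same-numbered libraries correlated at 0.04 over 40159 regions and nothing in the labels pairs them. With a replicate block limma called 0 member regions and 0 member genes, 309 of all regions in place of 94, and 2 member regions ranked higher in WT. With log2 fold enrichment, or without the variance trend, limma called 0 of all regions, with 2698 and 3898 at an unadjusted p under 0.05. The causes of these shifts were not tested.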
